A study of Mus musculus with 6 samples.

Results

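The genes described here encode the DNA replication machinery, 43 named genes out of 21887 protein-coding genes in the RefSeq table for GRCm38.p6. They were taken by name, and their CpG positions were those with 10 or more reads in all 6 libraries, from 1 kb before to 1 kb after the annotated span of each gene. This gave 1922 of the 1463044 positions so covered in the genome, in 41 of the 43 genes. No position of Pcna, the sliding clamp, or of Pold4, the small accessory subunit of polymerase delta, was covered.

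Methylation was read by enhanced reduced representation bisulfite sequencing (ERRBS), which cuts DNA with the enzyme MspI and reads CpG-rich fragments deeply. Germinal centre B cells from the spleen of C57BL/6 mice gave the DNA, with 3 libraries labelled TET2 Wild-Type and 3 labelled TET2 Knock-Out, called Tet2 WT and Tet2 KO here. Tet2 is a dioxygenase that oxidises 5-methylcytosine, and bisulfite reads 5-methylcytosine and 5-hydroxymethylcytosine alike, so each level is the sum of both. The kind of Tet2 allele, any driver of deletion, the age of the mice, pooling and the origin of each replicate are not stated in the labels used here. Each p-value therefore weighs only how much these libraries vary, part of which may be technical.

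Replication starts where the origin recognition complex binds DNA and, with Cdc6 and Cdt1, loads the ring-shaped MCM helicase. Cdc45 and the GINS complex switch that helicase on, primase and the polymerases then copy the strands, and the clamp, its loader, ligase and flap endonuclease complete them. Germinal centre B cells divide quickly, and most genes of this machinery are transcribed from CpG-rich promoters that E2F proteins, the factors that drive entry into S phase, are known to bind.

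The 6 libraries held 174375503 to 203863392 reads over CpG positions, and the replication gene positions were read at a mean of 117 to 137 reads per library. The 2 strands of a CpG are separate positions and PCR copies were counted like independent molecules. As a measure of precision, read counts therefore bear on counting error only. They also set the weight of each position in a level added over a region, so such a level can shift with the reads of its positions. Within Tet2, 6 positions from 133486189 to 133486297 on chromosome 3 had 32 to 168 reads in each Tet2 WT library and were missing from every Tet2 KO library, which follows the labels. The denser ends of B-cell marker genes had a median level of 0.700% in Tet2 WT (9 genes), against 80.5% for T-cell markers (5 genes) and 82.2% for myeloid markers (5 genes). The Tet2 WT replicate 1 library had the lowest mean level outside the gene ends, both over the replication genes and over the other protein-coding genes.

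The CpG-denser end of a gene reaches 1 kb to each side of the annotated end with the larger number of covered positions. It was the annotated start in 30 of the 30 replication genes with a known strand and no tie, and in 90.6% of other protein-coding genes. Levels are methylated reads as a percent of reads, added over the positions of a region, and group values are mean ± SD over 3 libraries.

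The bases just before the start of 4 replication genes are shown first, because their CpG positions were covered and because they hold words of the E2F type. The words searched, chosen with the files already in view, were TTTCCCGC, TTTCGCGC, TTTGCCGC and TTTGGCGC on both strands, in the window of 250 bases before to 50 after each RefSeq start. Capitals mark a word or its reverse complement, and in Mcm6 the words TTTGGCGC and TTTCGCGC, the second on the other strand, overlap. Sequences are from RefSeq on GRCm38.p6 and run 5′ to 3′ along the gene's strand. Gins3, a GINS subunit, is on the plus strand at chr8:95633309-95633558, and Orc3, an origin recognition subunit, on the minus strand at chr4:34614943-34615192. Rfc3, a clamp loader subunit, is on the minus strand at chr5:151651209-151651458, and Mcm6, a helicase subunit, on the minus strand at chr1:128359706-128359955.
Gins3: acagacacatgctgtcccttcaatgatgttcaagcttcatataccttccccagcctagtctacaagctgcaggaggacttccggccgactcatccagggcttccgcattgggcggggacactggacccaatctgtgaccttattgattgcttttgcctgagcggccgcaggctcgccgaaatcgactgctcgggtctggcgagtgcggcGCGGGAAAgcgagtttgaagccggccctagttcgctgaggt
Orc3: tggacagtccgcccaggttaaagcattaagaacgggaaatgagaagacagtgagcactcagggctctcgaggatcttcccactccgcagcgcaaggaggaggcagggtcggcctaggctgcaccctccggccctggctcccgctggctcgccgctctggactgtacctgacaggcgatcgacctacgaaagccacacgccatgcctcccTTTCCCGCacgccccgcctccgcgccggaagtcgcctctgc
Rfc3: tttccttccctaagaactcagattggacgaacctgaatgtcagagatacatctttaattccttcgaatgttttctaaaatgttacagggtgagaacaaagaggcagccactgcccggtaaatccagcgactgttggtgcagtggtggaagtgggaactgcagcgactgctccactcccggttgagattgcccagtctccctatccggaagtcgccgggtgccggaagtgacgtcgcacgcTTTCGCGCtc
Mcm6: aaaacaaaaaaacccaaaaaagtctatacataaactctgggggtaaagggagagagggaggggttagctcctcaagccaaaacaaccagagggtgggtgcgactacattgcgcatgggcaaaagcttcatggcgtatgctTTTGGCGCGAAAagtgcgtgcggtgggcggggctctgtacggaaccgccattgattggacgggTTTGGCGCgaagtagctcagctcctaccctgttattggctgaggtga

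Of the 43 genes, 36 matched a RefSeq promoter window. Gmnn, Mcm4, Gins1, Gins2, Gins4, Prim2 and Rfc2 did not. A word was found in 13 of 44 windows of replication genes (29.5%), in 13 of 36 genes, against 2.80% of windows of other protein-coding genes and 2.26% of all windows. Windows of replication genes also held more CpGs, with a median of 21 against 13 for other protein-coding genes, and each word holds a CpG. A match is a description of the letters and not of binding. Covered CpG positions lay inside a word in Gins3, Orc3, Pold3 and Rfc3, 7 positions in all. The highest level in any library was 0.862%, at the Gins3 position 41 bases before its start in Tet2 WT replicate 3. Averaged over the 7 positions, the level was 0.0564% in Tet2 WT and 0.0784% in Tet2 KO, and 1 of the 7 was at 0 in all 6 libraries.

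The denser ends of the replication genes were almost free of methylation in both genotypes. Of 37 ends with at least 3 covered positions, 33 had a mean level under 0.5% and 35 under 5%, against 47.5% and 73.4% of the ends of other protein-coding genes. The ends of Orc1, Orc4, Lig1 and Tyms, beside those of Pcna and Pold4, had too few covered positions. In the 35 ends under 5%, single libraries ranged from 0% to 2.21%, on 737 to 13318 reads per library, and the difference between Tet2 KO and Tet2 WT ranged from -0.443 to 0.526 points. Averaged over the 37 ends, the level was 1.73% ± 0.208 in Tet2 WT and 1.92% ± 0.131 in Tet2 KO, a difference of 0.191 points. The ends of other protein-coding genes averaged 13.0% ± 0.181 and 13.5% ± 0.0543, a difference of 0.503 points. Replication gene ends were not set beside ends of like level. Most of the 0.191 points came from the 4 positions at the Rfc1 end, and over the other 36 ends the mean difference was 0.0117 points. Leaving out 1 library gave 0.0728 points without Tet2 WT replicate 3 and up to 0.254 without Tet2 WT replicate 1. The Tet2 KO mean was the higher in 19 of 37 ends, and the median difference was 0.00814 points against 0.0577 elsewhere.

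The regions were tested with a limma-moderated quasi-binomial model of the read counts, for mean levels of 5% to 95%. A call needed a Benjamini-Hochberg adjusted p under 0.05 over all genes and group means at least 10 points apart. Among all protein-coding genes, 5 of 3708 tested ends were called, all higher in Tet2 KO (0.135%). Of the replication genes only Rfc1 and Fen1 entered the test, and 0 were called. Neither end had an unadjusted p under 0.05, while the same model without moderation gave 1 such end and limma on log2 ratios gave 0.

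Rfc1 encodes the large subunit of the clamp loader that opens Pcna around DNA. Its denser end, with 4 covered positions on 142 to 266 reads per library, was at 52.7%, 51.9% and 45.8% in the Tet2 WT replicates and at 58.4%, 56.2% and 55.8% in Tet2 KO. All 3 Tet2 KO libraries were above all 3 Tet2 WT libraries, and the difference of 6.66 points had an adjusted p of 0.771 in the moderated model. Fen1, the flap endonuclease that trims Okazaki fragments, had 25 covered positions. Its levels were 6.91%, 5.14% and 4.196% in Tet2 WT and 2.82%, 6.38% and 5.64% in Tet2 KO. The groups overlapped, and the difference of -0.466 points turned positive when positions were weighted equally or Tet2 KO replicate 1 was left out. Prim1, the catalytic subunit of primase, had the third highest end, at 1.25%, 1.45% and 0.653% in Tet2 WT and 1.64%, 2.21% and 1.08% in Tet2 KO.

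Rfc1 was the 1 replication gene end with all Tet2 KO libraries above all Tet2 WT libraries. Among the covered ends of other protein-coding genes 10.2% had that order. The reverse order was seen in 1 of the 37 covered ends (2.70%), that of Orc3, and in 2.69% of the ends of other protein-coding genes. The Orc3 end was at 0.159%, 0.343% and 0.115% in Tet2 WT and at 0%, 0% and 0.0705% in Tet2 KO. This end, which holds the printed sequence, had 27 covered positions on 2623 to 4254 reads per library, and its level lay below the tested range.

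A RefSeq gene span can begin away from the start of its main transcript, so windows 1 kb on either side of each RefSeq start were added after the data had been seen. They covered 33 replication genes, with a median level of 0.161% against 0.468% for other protein-coding genes. Orc1, the ATP-binding subunit of the origin recognition complex, was at 0.246% in Tet2 WT and 0.162% in Tet2 KO in that window over 49 positions. Orc4, another subunit, was at 0.271% and 0.334%, and Lig1, the ligase that seals Okazaki fragments, at 0.0421% and 0.281%. Rfc1 was at 0.0448% and 0.109% over 39 positions, so the 4 methylated positions above lay outside its CpG-rich start. All Tet2 KO libraries were above all Tet2 WT libraries in 2 of the 33 genes (6.06%), against 9.67% of other protein-coding genes. Lig1 was at 0.255%, 0.355% and 0.232% in Tet2 KO against 0%, 0.0965% and 0.0298% in Tet2 WT. Cdc6 was at 5.17%, 2.32% and 2.91% in Tet2 KO against 1.09%, 2.23% and 1.33% in Tet2 WT. Its window holds the 14 positions of the denser end and position 98909113, 962 bp after the start. The 14 averaged 0.597% in Tet2 WT and 0.308% in Tet2 KO with overlapping groups. Position 98909113 averaged 23.7% in Tet2 WT and 59.1% in Tet2 KO on 38 to 64 reads. All Tet2 KO libraries were below all Tet2 WT libraries in 1 of the 33 genes (3.03%), against 2.67% of other protein-coding genes. These windows reach methylated positions in Pold2, the second subunit of polymerase delta, which stood at 33.6% ± 10.3 in Tet2 WT and 27.0% ± 3.30 in Tet2 KO with overlapping groups (adjusted p = 0.621, limma-moderated). With the windows in place of the ends, the mean difference over the genes was -0.119 points, which turned to 0.0833 over the 32 genes other than Pold2, and the median over all 33 was 0.0203 points. With equal weight for each position the Pold2 difference was 1.41 points.

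Several of these ends are shared with a neighbouring gene, so their positions belong to both. Tiles at the denser ends of Mcm4, Orc3, Orc6, Cdc45, Rpa1, Rpa3, Fen1 and Mcm7 also touched the spans of Prkdc, Rars2, Vps35, Ufd1, Smyd4, Umad1, Tmem258 and Ap4m1, in that order.

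**Figure D1:**
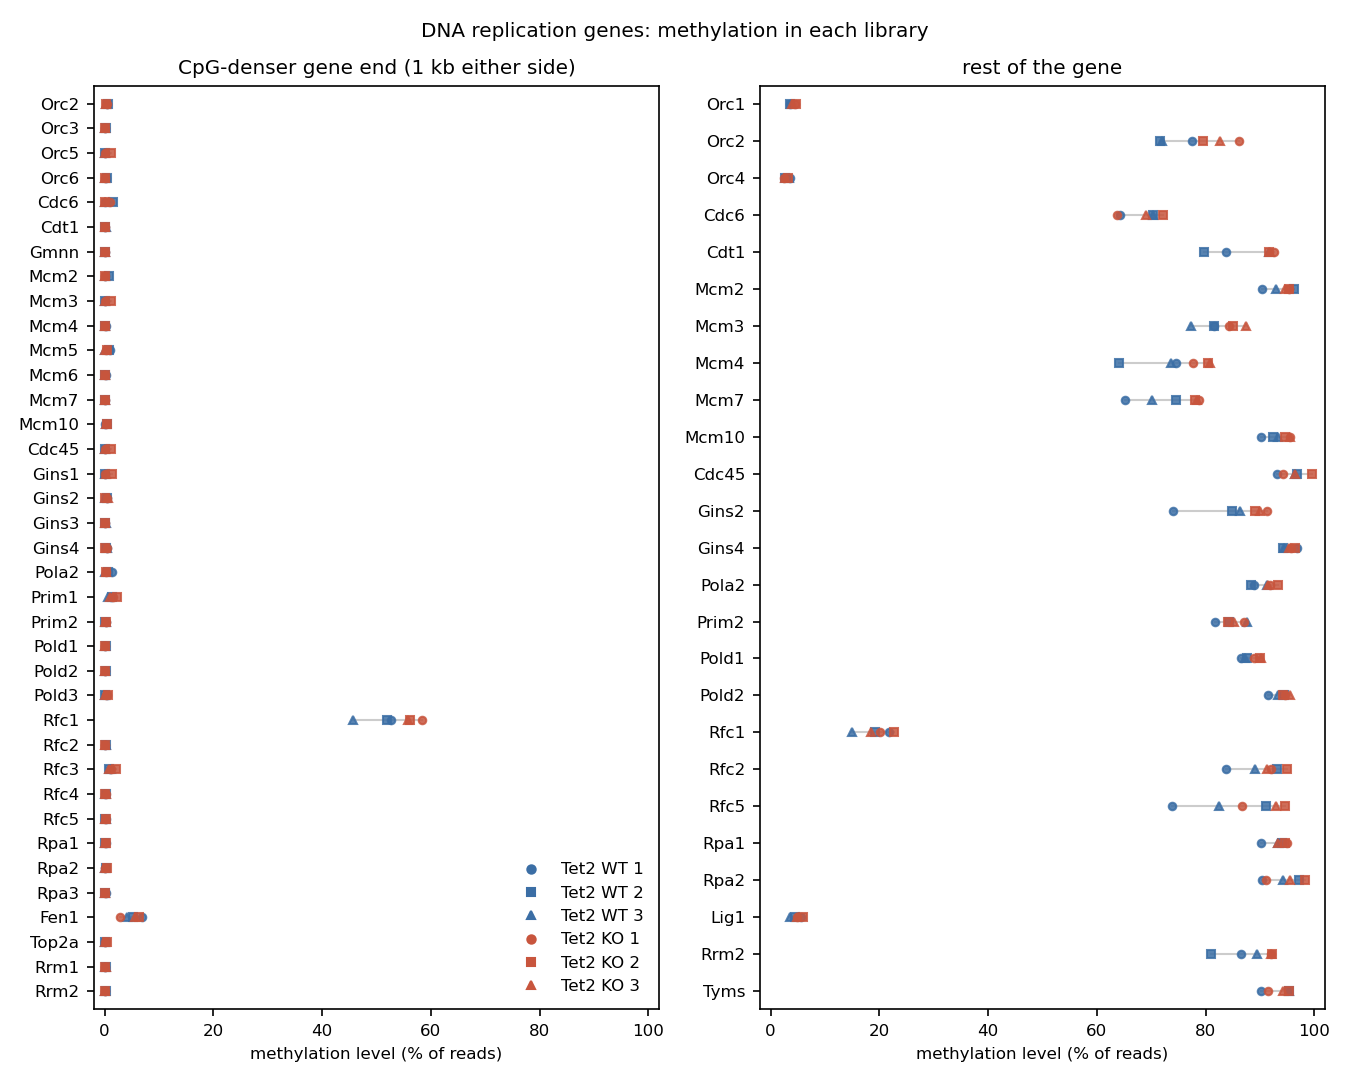
Methylation level (% of reads, horizontal axes) of each replication gene in each of the 6 libraries, for the CpG-denser end (left, 37 genes) and the rest of the gene (right, 25 genes). Points are single libraries, blue for Tet2 WT and red for Tet2 KO, with the symbol giving the replicate number. All ends except those of Rfc1 and Fen1 lie under 5%, and 21 rests of genes lie above 60%.

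The rest of the gene, meaning the span and its flanks outside the denser end, was highly methylated and mostly higher in Tet2 KO. With at least 5 covered positions required, 25 replication genes had a value, with a median level of 88.4% against 74.7% for other protein-coding genes. The mean over the 25 genes was 71.6%, 73.7% and 73.9% in the Tet2 WT replicates and 75.9%, 77.2% and 76.6% in Tet2 KO. Each Tet2 KO library was above each Tet2 WT library, at 76.6% ± 0.643 against 73.1% ± 1.29, and the same order held over other protein-coding genes, at 61.7% ± 0.128 against 59.7% ± 0.549. The Tet2 KO mean was the higher in 23 of 25 replication genes (92%) and in 74.2% of other genes. The median difference was 1.91 points against 1.37 points.

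No library overlapped between the groups in 11 of the 25 replication genes (44%), all of them with Tet2 KO above Tet2 WT, and that order was found in 20.4% of other protein-coding genes. The 11 genes were Orc1, Orc2, Cdt1, Mcm3, Mcm4, Mcm7, Mcm10, Gins2, Pola2, Pold1 and Rrm2. In Orc1, 49 of the 53 positions lie in its start window, at 0.246% in Tet2 WT and 0.162% in Tet2 KO. The other 4 Orc1 positions averaged 83.9% and 84.3%, and the groups overlapped in both parts. When each position had the same weight whatever its reads, 7 genes had all Tet2 KO libraries above all Tet2 WT libraries, and the Orc1 difference was 0.0862 points. Without Tet2 WT replicate 1, the lowest library, 20 of 25 genes were higher in Tet2 KO, and the median difference was 1.64 points against 1.13 for other protein-coding genes. Since the replication genes were methylated more highly outside their ends, they were also set beside genes of like level, a class chosen after the data had been seen. Among tested genes with a mean level of 60% or more, 18 of 19 replication genes were higher in Tet2 KO against 78.7% of others, and the median difference was 3.30 points against 1.94. In that class 10 of the 19 had all Tet2 KO libraries above all Tet2 WT libraries, against 24.5% of others. Whether the replication genes differ from other genes in this was not tested, and their members were chosen with earlier results known.

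**Figure D2:**
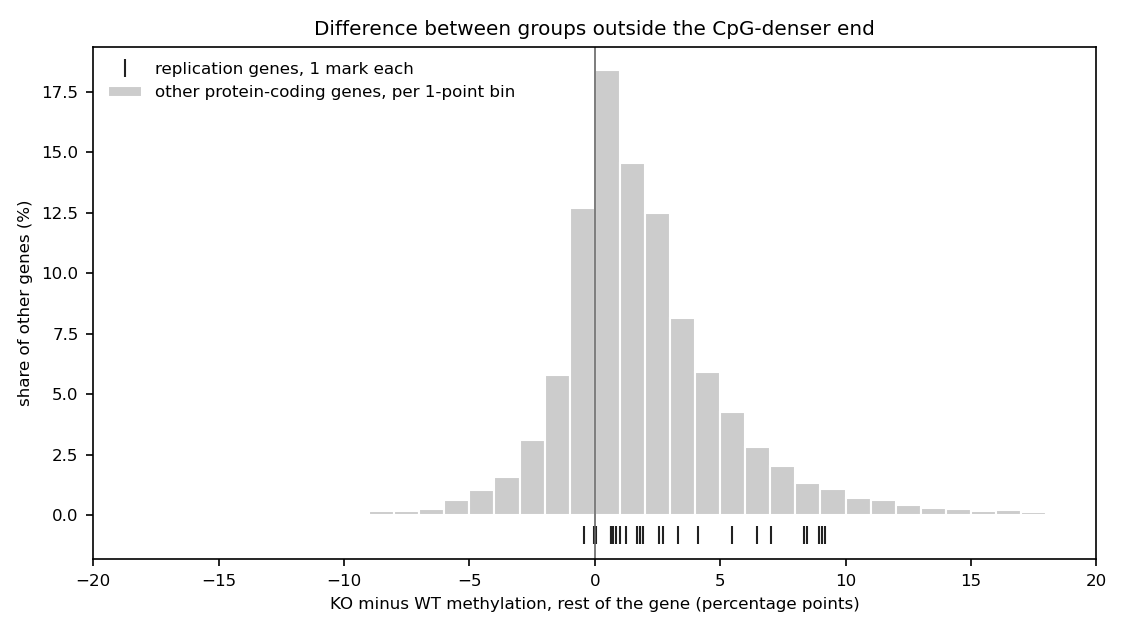
Difference in methylation between Tet2 KO and Tet2 WT outside the denser end (percentage points, horizontal axis), as black marks for the 25 replication genes and as grey bars for the share (%) of other protein-coding genes in each bin of 1 point. Of the marks, 23 lie above 0, and the highest is Orc2 at 9.17 points.

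In the test of each gene, 6 of 10793 rests of genes were called higher in Tet2 KO over all protein-coding genes (0.0556%), and 0 of the 20 replication genes tested were called. At an unadjusted p under 0.05 the moderated model found 6 of 20, all higher in Tet2 KO, and the share over all tested genes was 18.1%. The model without moderation also found 6 and limma on log2 ratios found 10, with 0 called by either. Over all tested genes the shares at that p were 14.2% and 16.4% with these 2 tests. The 6 genes of the main model were Mcm7, Pold1, Rrm2, Gins2, Pola2 and Orc2.

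In the origin recognition complex, Orc2 showed the largest difference among the 25. Its 5 covered positions stood at 77.5%, 71.6% and 71.9% in Tet2 WT and at 86.2%, 79.6% and 82.8% in Tet2 KO, a difference of 9.17 points (adjusted p = 0.268, limma-moderated). The groups did not overlap, and the difference was 3.16 points with equal weight for each position. Orc4 had the larger of the 2 falls, from 3.599%, 2.68% and 3.36% in Tet2 WT to 2.44%, 3.28% and 2.67% in Tet2 KO, with overlapping groups. The rests of Orc4 and Orc1 hold their CpG-rich starts, which is where 44 and 49 of their positions lie, and both were below the tested range. The 5 Orc4 positions outside its start windows averaged 94.6% in Tet2 WT and 95.5% in Tet2 KO. Its start windows were also higher in Tet2 KO, by 0.0630 points, with overlapping groups in both parts. With equal weight for each position the Orc4 difference turned to 0.0604 points. Orc3 and Orc5, with 3 and 4 covered positions outside the end, were under the minimum, and Orc6 had none. At the 3 Orc3 positions the Tet2 WT libraries were at 85.1%, 87.4% and 91.8% and the Tet2 KO libraries at 94.3%, 100% and 97.6%.

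Of the licensing factors, Cdt1, which brings MCM rings to origins, and Cdc6, the ATPase that works beside it, both had a tested rest. Cdt1 stood at 83.8%, 79.8% and 91.6% in Tet2 WT and at 92.7%, 91.7% and 91.9% in Tet2 KO over 10 positions, with Tet2 WT replicate 3 close to the Tet2 KO libraries (difference 7.03 points, adjusted p = 0.350, limma-moderated). Cdc6 stood at 64.2%, 70.4% and 70.4% in Tet2 WT and at 63.6%, 72.2% and 69.0% in Tet2 KO over 34 positions. Its difference of -0.0385 points had an adjusted p of 0.994 in the moderated model and turned positive under 6 alternatives. Gmnn, the inhibitor of Cdt1, had an end at 0.0554% in Tet2 WT and 0.0635% in Tet2 KO and only 2 positions elsewhere.

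Cdc6 held 12 of the 54 positions of replication genes at 20% to 80%, more than any other of these genes, and they moved unevenly. At position 98922368 of chromosome 11, which lay 14217 bp from the start, levels were 44.9%, 31.0% and 51.9% in Tet2 WT and 70.2%, 74.5% and 83.3% in Tet2 KO on 87 to 205 reads. The difference of 33.4 points had the smallest p of all tested positions in replication genes, with an adjusted p of 0.0695 in the moderated model. It was called when Tet2 WT replicate 3 was left out, at 38.0 points and an adjusted p of 0.0339. Position 98922479 in Cdc6, close by and in the same class, was at 14.4%, 50% and 43.1% in Tet2 WT and at 30.1%, 44.1% and 40.5% in Tet2 KO. Neighbouring positions of Cdc6 thus included 1 with separate groups and 1 with overlapping groups.

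The MCM helicase subunits form the ring that unwinds DNA. All 4 subunits with a tested rest, Mcm2, Mcm3, Mcm4 and Mcm7, were higher in Tet2 KO, by 1.91 to 8.93 points, and in 3 of the 4 the groups did not overlap. Mcm4 stood at 74.5%, 64.0% and 73.6% in Tet2 WT and at 77.6%, 80.4% and 80.9% in Tet2 KO over 11 positions (8.93 points, adjusted p = 0.304, limma-moderated), and at a difference of 2.49 points with equal weights. Its 1 kb tile from 15626001 on chromosome 16 averaged 89.5% in Tet2 WT and 92.2% in Tet2 KO over 7 positions. The Mcm4 tile from 15632001 averaged 47.2% and 49.3% over 4 positions. In both tiles the groups overlapped, with differences of 2.72 and 2.05 points. Mcm3 stood at 81.5%, 81.5% and 77.4% in Tet2 WT and at 84.4%, 85.0% and 87.4% in Tet2 KO over 7 positions, with an equal-weight difference of 0.8997 points. Its 1 kb tile from 20803001 on chromosome 1, with 4 positions, was lower in Tet2 KO with overlapping groups. That tile averaged 77.1% ± 3.03 in Tet2 WT and 71.4% ± 7.08 in Tet2 KO, a difference of -5.70 points. Mcm5 and Mcm6 had covered positions only in their denser ends, at 0.651% and 0.0614% in Tet2 WT and 0.226% and 0.0822% in Tet2 KO.

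Mcm7, on the minus strand of chromosome 5 from 138164583 to 138172111, had the smallest p of any replication gene. Outside its end, 28 positions stood at 65.2%, 74.6% and 70.1% in Tet2 WT and at 78.7%, 78.1% and 78.4% in Tet2 KO, on 3339 to 4061 reads per library. The Tet2 KO libraries lay within 1 point of each other and above all Tet2 WT libraries, and the difference was 8.46 points (adjusted p = 0.125, limma-moderated). The Mcm7 end was at 0.0301% ± 0.0345 in Tet2 WT and 0.0758% ± 0.0555 in Tet2 KO over 32 positions.

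In tiles of 1 kb with at least 3 covered positions, 569 of the 83114 tiles tested in the genome were called higher in Tet2 KO (0.685%). Replication genes had 130 covered and 55 tested tiles, of which 0 were called. At an unadjusted p under 0.05 there were 11 tiles, all higher in Tet2 KO, and 10 each without moderation and with limma on log2 ratios. Over all tested tiles in the genome the shares at that p were 11.5%, 9.18% and 9.40% with these 3 tests. The Tet2 KO mean was the higher in 45 of 55 tested tiles (81.8%), against 68.0% of tested tiles at other protein-coding genes, and in 15 of them all Tet2 KO libraries were above all Tet2 WT libraries, against 14.6% of tested tiles at other protein-coding genes. None had the reverse order.

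The tile from 138169001 to 138170000 in Mcm7 had the smallest p among them. Its 10 positions stood at 65.6%, 80.1% and 74.3% in Tet2 WT and at 85.2%, 85.5% and 83.7% in Tet2 KO, a difference of 11.4 points with an adjusted p of 0.0620 in the moderated model. Without Tet2 WT replicate 2 the difference was 14.8 points and the adjusted p 0.0171, and the tile was called. With the replicate number as a block the adjusted p was 0.0262 and the tile was called too. Without Tet2 WT replicate 1 the difference was 7.57 points.

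Single positions of this Mcm7 tile were uneven. Position 138169240 was at 41.6%, 70.1% and 54.4% in Tet2 WT and at 83.1%, 72.2% and 84.1% in Tet2 KO (24.4 points, adjusted p = 0.0835, limma-moderated). Position 138169264 was at 53.0%, 80.7% and 42.9% in Tet2 WT and at 85.5%, 80.7% and 80.8% in Tet2 KO, where Tet2 WT replicate 2 lay among the Tet2 KO libraries. The same Mcm7 CpG read on the other strand, at position 138169265, was at 97.1% to 100% in Tet2 WT and at 96.9% to 100% in Tet2 KO, on 68 to 124 reads. The 2 strands of this CpG therefore differed in all 6 libraries, and by less in the Tet2 KO libraries. Without Tet2 WT replicate 2, positions 138169240, 138169264 and 138169310 of Mcm7 were called, with differences of 29.3 to 34.4 points.

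**Figure D3:**
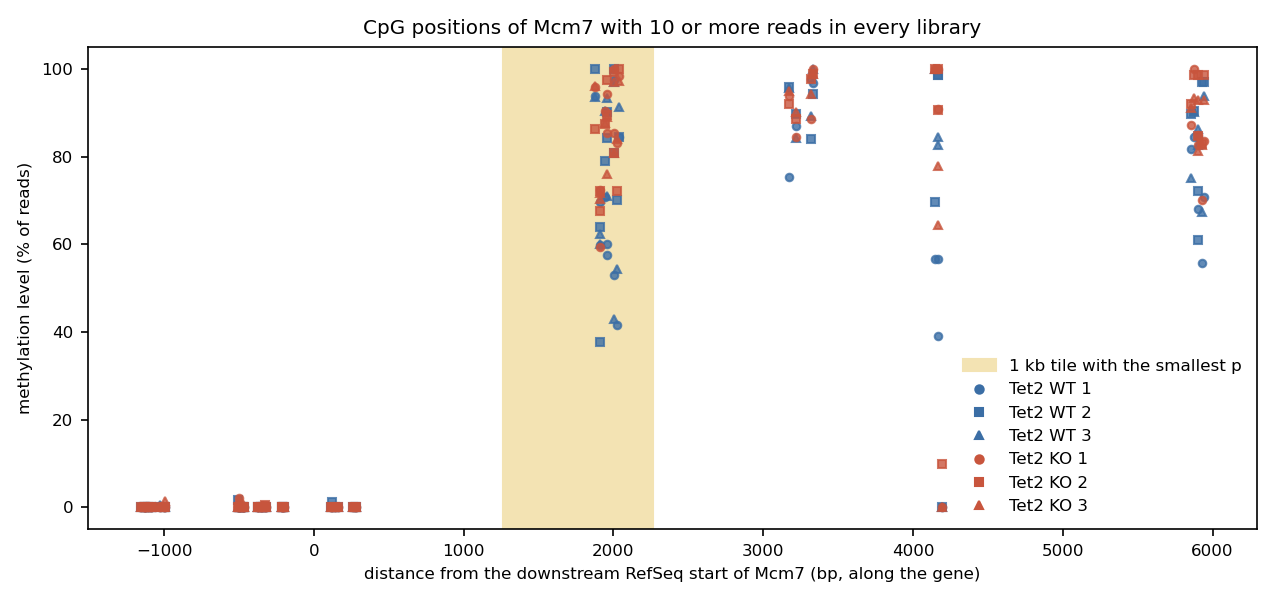
Methylation level (% of reads, vertical axis) at each covered CpG position of Mcm7 by distance along the gene from its downstream RefSeq start (bp, horizontal axis), with blue for Tet2 WT, red for Tet2 KO and the symbol for the replicate. Positions near the start are close to 0, and the shaded 1 kb tile holds the 10 positions whose summed level was 73.4% in Tet2 WT and 84.8% in Tet2 KO.

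Mcm7 also carries a microRNA cluster within its span, and the tile from 138165001 to 138166000 holds it. Mature sequences are given from RefSeq on GRCm38.p6, with the seed, bases 2 to 8, in capitals, because covered positions lay inside the first hairpin. The miR-25-3p sequence lies at chr5:138165332-138165353, miR-93-5p at chr5:138165574-138165596 and miR-106b-5p at chr5:138165787-138165807, all on the minus strand.
miR-25-3p: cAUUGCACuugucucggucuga
miR-93-5p: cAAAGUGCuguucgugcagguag
miR-106b-5p: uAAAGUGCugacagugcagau

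The miR-93-5p and miR-106b-5p seeds are the same 7 bases, and the miR-25-3p seed differs. The 6 covered positions of this Mcm7 tile stood at 74.0%, 84.4% and 82.4% in Tet2 WT and at 85.2%, 91.9% and 89.3% in Tet2 KO (8.54 points, adjusted p = 0.241, limma-moderated). All Tet2 KO libraries were above all Tet2 WT libraries, by less than 1 point at the nearest. Inside the miR-25 hairpin, 5 positions averaged 80.1% ± 6.39 in Tet2 WT and 88.5% ± 4.26 in Tet2 KO. None of the covered positions lay inside the hairpins of miR-93 or miR-106b, and transcript levels were not measured here.

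Among the activators of the helicase, all 4 genes with a value, Mcm10, Cdc45, Gins2 and Gins4, were higher in Tet2 KO. Gins2, a GINS subunit, stood at 73.9%, 84.9% and 86.4% in Tet2 WT and at 91.3%, 89.0% and 89.96% in Tet2 KO over 13 positions (8.36 points, adjusted p = 0.215, limma-moderated). Tet2 WT replicate 1 was the lowest of the 6 by more than 10 points, and the equal-weight difference was 4.94 points. The tile from 120582001 to 120583000 on chromosome 8 held 10 of these Gins2 positions and stood at 73.2%, 84.1% and 86.0% in Tet2 WT and at 91.1%, 88.1% and 90.04% in Tet2 KO (adjusted p = 0.175, limma-moderated).

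Mcm10, which helps Cdc45 and the polymerases join the helicase, stood at 90.2%, 92.4% and 93.3% in Tet2 WT and at 95.6%, 94.6% and 95.6% in Tet2 KO over 14 positions. The groups were separate, with a difference of 3.30 points (adjusted p = 0.290, limma-moderated). Cdc45 and Gins4 averaged 95.5% and 95.2% in Tet2 WT and 96.7% and 95.9% in Tet2 KO, above the tested range, with overlapping groups. Gins1 and Gins3 had covered positions only at their ends, at 0.0542% and 0.148% in Tet2 WT and 0.508% and 0.104% in Tet2 KO.

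Pola2, the second subunit of polymerase alpha, stood at 89.0%, 88.3% and 91.3% in Tet2 WT and at 91.9%, 93.3% and 91.6% in Tet2 KO over 46 positions (2.72 points, adjusted p = 0.248, limma-moderated). Its groups were separate by a narrow gap, and its tile from 5942001 to 5943000 on chromosome 19 was at 89.9%, 90.8% and 92.6% in Tet2 WT and at 94.3%, 95.1% and 94.9% in Tet2 KO. Prim2, the large subunit of primase, averaged 84.6% in Tet2 WT and 85.5% in Tet2 KO over 53 positions with overlapping groups. Its tiles differed more, and the one from 33529001 to 33530000 on chromosome 1 averaged 60.9% ± 7.94 in Tet2 WT and 74.2% ± 6.06 in Tet2 KO over 4 positions, also with overlapping groups. Prim1 had 3 covered positions outside its end.

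In polymerase delta, Pold1, the catalytic subunit, had the most covered positions outside the end of any replication gene, 77, on 6862 to 9511 reads per library. It stood at 86.5%, 87.6% and 87.2% in Tet2 WT and at 88.8%, 90.03% and 90.2% in Tet2 KO. The difference of 2.57 points was small but larger than the spread within either group, which was 0.553 and 0.759 points (SD), and the adjusted p was 0.168 in the moderated model. Pold2 averaged 93.1% and 94.8% with overlapping groups. Pold3, the third subunit, had 3 covered positions outside its end and stood at 92.7% ± 1.12 in Tet2 WT and 91.8% ± 2.82 in Tet2 KO.

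The clamp loader genes were uneven. Rfc5 stood at 73.8%, 91.2% and 82.4% in Tet2 WT and at 86.8%, 94.7% and 93.0% in Tet2 KO over 7 positions, and although the difference was 9.05 points the groups overlapped (adjusted p = 0.402, limma-moderated). Rfc2 stood at 83.8%, 93.2% and 89.2% in Tet2 WT and at 92.1%, 95.1% and 91.3% in Tet2 KO over 12 positions. Its tile from 134590001 to 134591000 on chromosome 5 did not overlap, at 83.1%, 88.6% and 90.4% in Tet2 WT and 96.9%, 96.2% and 92.7% in Tet2 KO (7.92 points, adjusted p = 0.214, limma-moderated). Outside its end Rfc1 averaged 18.6% ± 3.40 in Tet2 WT and 20.4% ± 2.09 in Tet2 KO, a value that mixes its CpG-rich start with methylated positions. Outside the start windows it was at 81.3%, 89.1% and 82.0% in Tet2 WT and 87.5%, 87.7% and 87.3% in Tet2 KO.

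Large differences at few reads were seen in Rfc3 and Rfc4, which were under the minimum number of positions and are named after their values were seen. Rfc4 had 2 positions outside its end, which stood at 32.3%, 37.6% and 22.2% in Tet2 WT and at 73.6%, 65.3% and 56.9% in Tet2 KO on 45 to 99 reads per library. Its denser end was at 0.0943% ± 0.0939 in Tet2 WT and 0.199% ± 0.0497 in Tet2 KO. The denser end of Rfc3 had 48 positions, of which 44 had a mean under 5%. The other 4, the nearest 742 bp and the farthest 926 bp from the Rfc3 start whose upstream bases are printed above, did not move together.

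At the farthest of these Rfc3 positions, 151650282, levels were 18.0%, 3.23% and 35.4% in Tet2 WT and 58.2%, 52.0% and 52.5% in Tet2 KO, on 40 to 89 reads (35.4 points, adjusted p = 0.210, limma-moderated). At position 151650427 they were 0%, 0% and 11.3% in Tet2 WT and 25.8%, 33.0% and 23.2% in Tet2 KO. At position 151650466, 742 bp from the Rfc3 start, they were 16.1%, 30.5% and 38.1% in Tet2 WT and 24.6%, 10.6% and 14.5% in Tet2 KO, with overlapping groups and a lower Tet2 KO mean. The Rfc3 positions at both ends of this stretch thus moved in opposite directions, and 2 of the 4 had separate groups.

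The subunits of the complex that coats single-stranded DNA overlapped between the groups. Rpa1 averaged 92.6% ± 2.002 in Tet2 WT and 94.4% ± 0.926 in Tet2 KO, and Rpa2 averaged 94.0% ± 3.42 and 94.99% ± 3.61, both with overlapping groups. Rpa3 had covered positions only at its end, at 0.115% ± 0.115 in Tet2 WT and 0.125% ± 0.0136 in Tet2 KO over 57 positions. Lig1 averaged 4.57% ± 1.004 in Tet2 WT and 5.23% ± 0.658 in Tet2 KO outside its annotated end. Of these 40 Lig1 positions, 37 lie in its CpG-rich start windows. The 3 outside them averaged 96.0% ± 4.48 in Tet2 WT and 94.2% ± 2.78 in Tet2 KO, with overlapping groups. Top2a, the topoisomerase that untangles replicated chromosomes, had an end at 0.0752% and 0.183% and 4 positions elsewhere, at 89.0% ± 3.90 in Tet2 WT and 91.1% ± 1.67 in Tet2 KO.

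Of the genes that supply nucleotides, Rrm2, the regulated subunit of ribonucleotide reductase, was higher in Tet2 KO. It stood at 86.6%, 80.9% and 89.6% in Tet2 WT and at 92.1%, 92.3% and 92.1% in Tet2 KO over 20 positions (6.45 points, adjusted p = 0.190, limma-moderated). The Tet2 KO libraries were almost level with each other, while the Tet2 WT libraries spread over more than 8 points. Its tile from 24711001 to 24712000 on chromosome 12 held 18 of these Rrm2 positions, at 87.0%, 81.9% and 89.5% in Tet2 WT and 92.3%, 92.7% and 92.7% in Tet2 KO (6.42 points, adjusted p = 0.124, limma-moderated). Without Tet2 WT replicate 3 the limma-moderated adjusted p was 0.0432 at 8.10 points, short of the 10 points a call needs. Rrm1, the large subunit, had covered positions only at its end, at 0.0930% and 0.116%. Tyms, which makes thymidylate, stood at 90.3%, 95.3% and 95.3% in Tet2 WT and at 91.5%, 95.3% and 94.3% in Tet2 KO, with the smallest positive difference of the 25 genes, 0.0683 points.

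Levels along the genes rose steeply after the start. From 250 bp before to 250 bp after the nearest RefSeq start, replication genes were at 0.107% to 0.200% in Tet2 WT and 0.133% to 0.194% in Tet2 KO as means over genes. From 500 to 1000 bp after it the means were 15.5% ± 1.39 and 19.2% ± 2.50, over 10 genes. From 1000 to 2000 bp they were 67.7% ± 4.07 and 72.9% ± 1.91, over only 4 genes, against 43.8% ± 1.24 and 46.0% ± 0.201 in other protein-coding genes. From 5000 to 20000 bp, over 18 genes, the Tet2 WT libraries were at 80.5%, 81.7% and 82.3% and the Tet2 KO libraries at 86.7%, 88.3% and 89.6%, while other genes were at 77.5% ± 1.18 and 79.6% ± 0.295. Each gene had the same weight in these means, and Rfc3 had 1 covered position at that distance. The difference at that Rfc3 position was 41.5 points, on 21 to 67 reads per library. The means without Rfc3 were not computed. In each of these bins from 500 to 20000 bp all Tet2 KO libraries were above all Tet2 WT libraries, in both sets of genes. Beyond 20000 bp the replication gene libraries overlapped, with a difference of 1.77 points, and from 1000 to 500 bp before the start they overlapped with a lower Tet2 KO mean, by -0.598 points. In both of these bins other protein-coding genes had all Tet2 KO libraries above all Tet2 WT libraries, by 1.68 and 1.26 points.

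**Figure D4:**
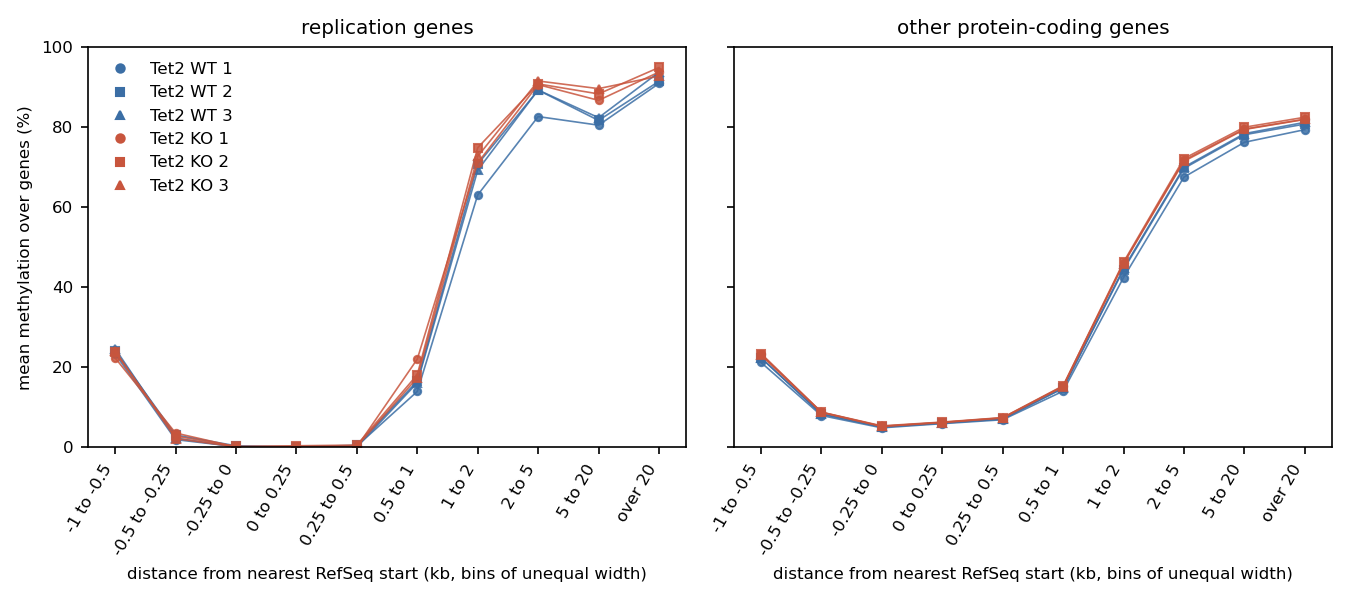
Mean methylation over genes (%, vertical axis) by distance from the nearest RefSeq start (kb, bins of unequal width, horizontal axis) for the replication genes (left) and other protein-coding genes (right), with 1 line per library, blue for Tet2 WT and red for Tet2 KO. Lines of both colours run together near 0 at the start, and from 5 to 20 kb the replication gene lines separate, at 80.5% to 82.3% for Tet2 WT and 86.7% to 89.6% for Tet2 KO. Each gene has the same weight in a bin, also Rfc3, which has 1 covered position from 5 to 20 kb.

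By position, 74.3% of the 1922 covered positions of replication genes had a mean level under 5%, 2.81% were at 20% to 80% and 22.3% over 80%. At all other covered positions the shares were 54.8%, 10.1% and 29.0%. The 54 positions at 20% to 80%, in 18 genes, averaged 45.9%, 52.5% and 52.3% in Tet2 WT and 61.2%, 62.9% and 60.8% in Tet2 KO, and 43 of the 54 were higher in Tet2 KO. All other positions in that class averaged 55.0% in Tet2 WT and 59.1% in Tet2 KO. Membership in this class used the mean level in the 6 libraries, so a position that differs widely between the groups is likely to fall in it. Over 80%, replication genes averaged 92.7% and 94.5%, and under 5% they averaged 0.177% and 0.182%.

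In the test of single positions, 1489 of 525213 tested in the genome were called higher in Tet2 KO (0.284%), and 0 of the 296 tested in replication genes were called. The moderated model gave 45 of the 296 an unadjusted p under 0.05, of which 43 were higher in Tet2 KO. Without moderation there were 29, of which 24 were higher, and limma on log2 ratios gave 36, of which 28 were higher, with 0 called by either. Over all tested positions the shares at that p were 8.70%, 7.00% and 6.49% with these 3 tests, and in the moderated model 33944 of the 45647 such positions outside replication genes were higher in Tet2 KO. Without Tet2 WT replicate 3, position 122571282 of Cdt1 was called beside the Cdc6 position above, at 27.8 points.

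Another 41 replication genes outside this set, among them kinases, checkpoint and fork factors, were described in the same way. Their ends were covered in 40 genes, with a median of 0.163% in Tet2 WT and 0.177% in Tet2 KO, 2 were tested and 0 called. The tested end of Tk1 was at 6.19% ± 2.09 in Tet2 WT and 15.2% ± 0.497 in Tet2 KO, with separate groups. Its unadjusted p was under 0.05 in the moderated model, and the other tested end, that of Chtf18, had overlapping groups. Their rests were covered in 21 genes, of which 16 were tested and 0 called. In the moderated model 4 tested genes (25%) had an unadjusted p under 0.05, all higher, against 18.0% of tested other protein-coding genes. Of the 21 genes, 16 (76.2%) had a higher Tet2 KO mean, against 74.2% of other protein-coding genes. In 5 (23.8%) all Tet2 KO libraries were above all Tet2 WT libraries, against 20.4%, and in 1 (4.76%) all were below, against 1.88%. Their median difference was 1.47 points against 1.37. In the set described first, 92% had a higher Tet2 KO mean and 44% had all Tet2 KO libraries above. The genes for polymerase epsilon, the leading-strand polymerase, included the only replication gene named here that was called. Pole2, its second subunit, averaged 54.0% ± 8.83 in Tet2 WT and 84.0% ± 0.708 in Tet2 KO over 32 positions outside its end (adjusted p = 0.0367, limma-moderated). The call was lost without Tet2 WT replicate 1 (adjusted p = 0.0562), without Tet2 KO replicate 1, 2 or 3 (0.0994, 0.232 and 0.297), and under 6 other alternatives, among them limma on log2 ratios (0.112). Pole, the catalytic subunit, averaged 89.6% ± 7.42 and 93.9% ± 2.80 over 5 positions (adjusted p = 0.673, limma-moderated). Tet2 itself averaged 89.8% ± 2.06 in Tet2 WT and 93.8% ± 1.41 in Tet2 KO outside its end (adjusted p = 0.270, limma-moderated).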

How the data were processed

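Each deposited file gives, for a CpG on 1 strand, how many reads covered it (a count) and which percent of them read C or T, per the file headers. The lowest coverage count was 10 in each library. Reads were aligned with Bismark to GRCm38, per the submitters' processing notes, and the Bismark version is not given in the sources used here. As a check of the build, all 219174 covered positions in RefSeq promoter windows fell on a CG.

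Multiplying the 2 gave methylated and unmethylated read counts, which were whole at 100% of positions within the rounding of the percents. Reads of another base, 0.0172% to 0.0189% of reads, were left out. Counts were added over gene ends (at least 3 positions), rests of genes (5), 1 kb tiles (3) or taken singly, for positions with 10 or more reads in all 6 libraries. Each was fitted with a quasi-binomial logistic model whose dispersion, on 4 residual degrees of freedom, was moderated over all features as limma does it, coded in Python 3.11.15 with numpy 2.4.6, scipy 1.17.1 and pandas 2.3.3 and tested on simulated data. All 6 libraries entered each fit, with no covariate.

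The 43 genes, the lists and the tests were chosen with earlier results of these data known, so no p-value is given for the set. Values per library are given for the 8 genes with the smallest p outside the end, the 5 with the smallest p and the 3 with the highest level at the end, the 6 tiles with the smallest p, and the 3 largest rises and falls outside the end, where only 2 genes fell and only 2 ends were tested. Beyond this, Cdt1, Mcm3, Orc3, Rfc3 and Rfc4, the start windows of Lig1 and Cdc6, the single positions and the Prim2, Mcm3 and Mcm4 tiles were given values per library or per group after these had been seen. The same holds for the Orc1 and Orc4 positions outside the start windows. The closing section gives the alternatives and their effect. Exons, introns and repeats were not analysed here.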

Additional observations from a re-analysis of the deposited data

How the results depend on the processing

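No end or rest of the 43 genes was called under any alternative run. Leaving out 1 library gave 0 to 1 called tiles and 0 to 3 called positions in replication genes, and a mean end difference of 0.0728 to 0.254 points. It gave a median difference outside the end of 1.64 to 2.93 points, 19 to 24 genes higher in Tet2 KO and 11 to 15 with separate groups, which 2 libraries against 3 reach more easily. With more positions required per region the mean end difference was 0.0117 points, with RefSeq start windows, added after the data had been seen, it was -0.119 points, and with positions weighted equally 7 genes had separate groups. The Cdc6 difference outside the end was 0.402 points at a coverage of 20 or more, 0.475 with coverage required in 2 libraries per group, 2.87 with equal weights, and 0.983, 1.22 and 2.28 without Tet2 WT replicate 2, Tet2 WT replicate 3 or Tet2 KO replicate 1, in a range of -2.09 to 2.28 over the libraries left out in turn. The Fen1 end difference was 0.214 points with equal weights and 0.598 without Tet2 KO replicate 1, in a range of -1.07 to 0.598. Alternatives were run for 18 of the ends, rests and tiles of replication genes named above. Of 291 alternatives, 281 kept the direction and the lack of a call, 8 turned the direction and 2 made a call, both for the Mcm7 tile. The Rrm2 tile without Tet2 WT replicate 3 passed on its adjusted p alone. The cause was not tested.

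With the replicate number as a block, 1 tile of the replication genes was called, in Mcm7, against 0 without it, and 894 against 569 tiles, 0 against 1489 positions, 2 against 6 rests and 0 against 5 ends were called higher in Tet2 KO over the genome. The block changed no other call of a replication gene. The replicate numbers were not taken to pair the libraries, since deviations of same-numbered libraries from their group means over tested tiles correlated at 0.0229, 0.00220 and 0.00371 for numbers 1, 2 and 3, and Tet2 WT replicate 3 correlated best with Tet2 KO replicate 2, at 0.0150. Counts over all genes also moved in other ways, with 119 to 1167 tiles, 484 to 3265 positions, 0 to 114 rests and 1 to 12 ends called when 1 library was left out, and 0 tiles, ends and rests with limma on log2 ratios or without moderation. At levels near 0 or 100% no test was made, and genes with under 5 positions outside the end were limited by depth and coverage.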
